A study of Homo sapiens with 10 samples.

Results

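Cytochrome P450 enzymes are heme proteins that oxidize steroids, vitamins, fatty acids and foreign compounds, and POR, the NADPH cytochrome P450 reductase, passes electrons to those in the endoplasmic reticulum. In vitamin D metabolism CYP27B1 makes the active hormone calcitriol and CYP24A1 degrades it, while VDR, the nuclear receptor for calcitriol, pairs with a retinoid X receptor and is known for inducing CYP24A1. AHR, a ligand-activated transcription factor, pairs with ARNT and is known for inducing CYP1A1, CYP1B1 and its own repressor AHRR, and CYP2S1 is known as a further dioxin-inducible P450.

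These 9 genes (CYP24A1, CYP27B1, CYP2S1, CYP1A1, CYP1B1, VDR, AHR, AHRR and POR) were described in RNA-seq counts for 61533 genes, and all 9 had a count in at least 1 library. They were chosen on the measured difference between T24R2 and T24, so their differences between the lines are given as a description, with standard errors and without a test. T24 is an established human bladder cancer cell line, and T24R2 is its cisplatin-resistant derivative, obtained by raising the dose of the drug step by step. Both lines were sampled on day 3 of culture with 5 libraries each. T24R2 was a single derived line that came from another laboratory. The methods of the study keep it in medium with cisplatin while the labels list medium without the drug, so effects of the line and of drug exposure cannot be told apart. The labels do not say whether replicates were separate cultures, so p-values measure only the spread between these libraries, which may be technical.

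Total counts were 9257843 to 10247941 in T24 and 9591379 to 10840954 in T24R2. Values are counts, counts scaled to library size by the TMM method (CPM), or CPM per kilobase of exon (RPKM) where genes are compared with each other. A gene was called at an adjusted p-value (edgeR quasi-likelihood test, Benjamini-Hochberg) under 0.05 with a log2 fold change beyond 0.5 in either direction. Of 16181 genes that passed the filter on low counts, 51.4% were called, 24.9% as higher and 26.5% as lower in T24R2. Genes near 0 in a line can pass that filter through the other line alone, which makes a call likely. Higher genes made up 48.5% of the calls, and 60.3% without TMM scaling. Leaving the scaling out shifted the median over all genes tested from 0.015 to 0.18 on the log2 scale. The libraries of the lines did not overlap in CPM for 61.2% of the genes tested. Among 15 urothelial and epithelial markers, 8 reached a mean of 1 CPM in T24 and 5 in T24R2. Their summed level was 4922 to 5657 CPM in T24 and 2996 to 3197 CPM in T24R2, most of it from KRT7, KRT8 and KRT18. KRT19 fell from 266 ± 7.22 to 0.09 ± 0.12 CPM (SD, n = 5 in each line). None of 6 leukocyte markers reached a mean of 1 CPM in either line, and their sum was at most 1.76 CPM in T24 and 2.68 CPM in T24R2. The 4 endothelial markers summed to 225 to 277 CPM in T24 and 1.60 to 2.49 CPM in T24R2, and CDH5 made up nearly all of the T24 sum. The 5 fibroblast markers summed to 8.83 to 11.2 and 0.355 to 1.56 CPM. The part of these marker differences in the results below was not tested, and in bulk RNA fewer cells of a type and less RNA per cell cannot be told apart.

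The 9 genes divided into groups by level. CYP24A1, CYP27B1 and CYP2S1 were lower in T24R2 than in T24, VDR and POR were higher, AHR overlapped between the lines, and CYP1A1, CYP1B1 and AHRR were near the limit of detection in both lines. The filter passed 6 of the 9. Of these, 5 met the thresholds of a call, 2 as higher and 3 as lower, beside 51.4% of all genes tested, and the libraries did not overlap for 5, beside 61.2% of all genes tested. The choice of the genes used this contrast, so nothing is read from either count.

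**Figure D1:**
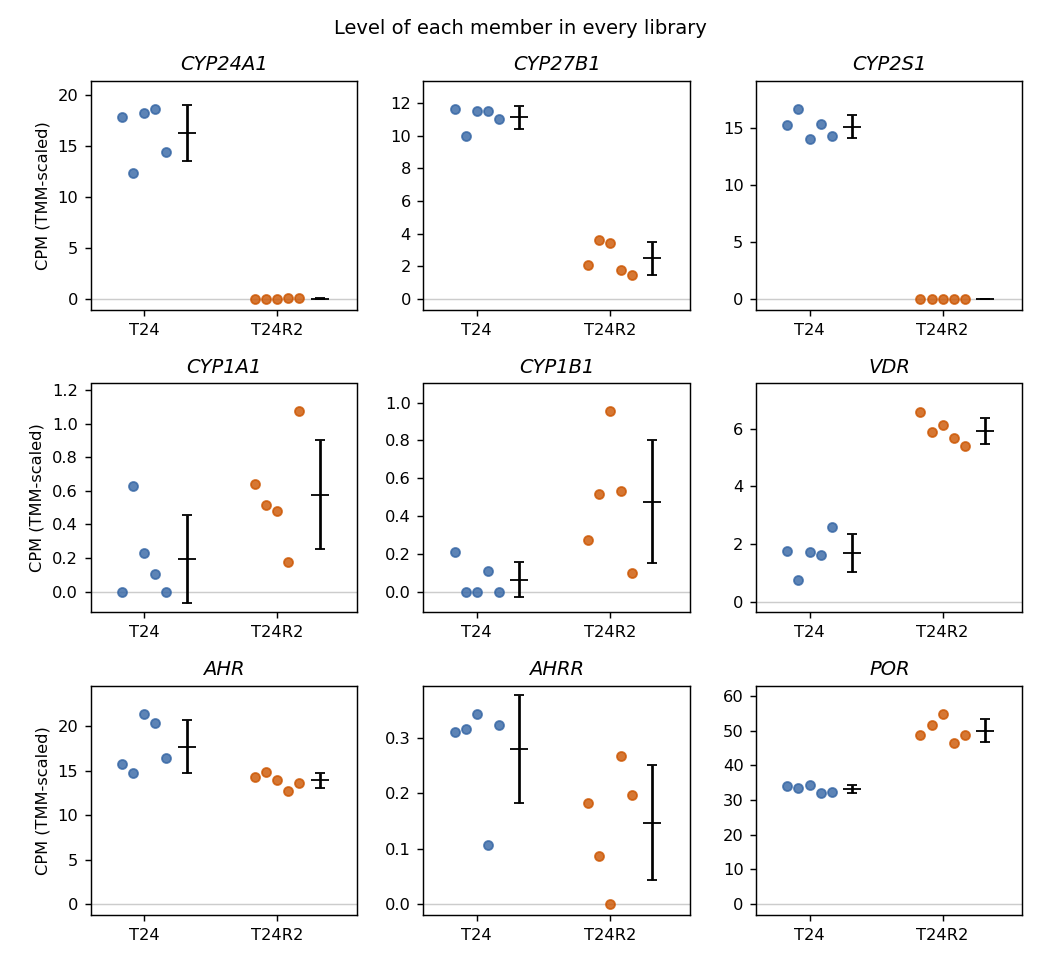
TMM-scaled CPM (vertical axis, linear, a separate scale in each panel) of the 9 genes in the 5 T24 libraries (blue) and the 5 T24R2 libraries (orange), with the mean and SD of each line as a black bar. CYP24A1 and CYP2S1 lie between 12.4 and 18.6 CPM in T24 and at or near 0 in T24R2, VDR and POR are higher in every T24R2 library, and CYP1A1, CYP1B1 and AHRR stay at or under 1.08 CPM.

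CYP24A1 (ENSG00000019186.10, hg38 chromosome 20, 54153446 to 54173986, minus strand), the mitochondrial enzyme that inactivates calcitriol, had 172, 118, 160, 173 and 134 counts in the T24 libraries and 0, 0, 0, 1 and 1 in the T24R2 libraries. All T24 libraries were far above all T24R2 libraries. The mean was 16.3 ± 2.73 CPM in T24 and 0.037 ± 0.051 CPM in T24R2 (SD, n = 5 each). With 2 counts in all of T24R2 the ratio of T24 to T24R2 was 442, with a 95% exact interval of 122 to 3658. Such intervals pool the counts of each line, so they cover counting error only and leave out the spread between libraries. Duplicates were removed by position, and no molecular identifiers are described.

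CYP27B1 (ENSG00000111012.10, chromosome 12, 57762334 to 57768986, minus strand), the enzyme that makes calcitriol, had 112, 95, 101, 107 and 102 counts in T24 and 23, 42, 36, 20 and 15 in T24R2. The lines did not overlap, and the T24R2 libraries were the more scattered ones. The mean was 11.1 ± 0.679 CPM in T24 and 2.49 ± 0.988 CPM in T24R2, which is 22.4% of the T24 level and a log2 fold change of -2.15 ± 0.19 (SE). METTL1, a neighbour on the same strand, shares 107 exon bases with CYP27B1, or 3.26% of its exon length, and METTL1 itself differed by 0.0038 on the log2 scale (SE 0.17, adjusted p = 0.984).

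VDR (ENSG00000111424.12, chromosome 12, 47841537 to 47943048, minus strand) had 17, 7, 15, 15 and 24 counts in T24 and 72, 68, 64, 64 and 55 in T24R2. Every T24R2 library was above every T24 library. The mean was 1.68 ± 0.657 CPM in T24 and 5.93 ± 0.453 CPM in T24R2, or 353% of the T24 level (log2 fold change 1.82 ± 0.23, SE). The receptor and the enzyme that degrades its hormone differed in opposite directions between the lines. An unnamed opposite-strand gene, ENSG00000205537, shares 19 exon bases with VDR and had 4 counts in T24 and 9 in T24R2 over all libraries.

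Per kilobase of exon, the order of the 3 vitamin D genes turned over. In T24 the RPKM of CYP24A1 was 4.08 ± 0.686, that of CYP27B1 was 3.38 ± 0.207 and that of VDR was 0.296 ± 0.116. The ranges of CYP24A1 and CYP27B1 overlapped in T24, and both lay above VDR. In T24R2 the order was VDR at 1.05 ± 0.0799, CYP27B1 at 0.757 ± 0.301 and CYP24A1 at 0.0094 ± 0.013, and here the ranges of VDR and CYP27B1 overlapped. Within a library, the RPKM ratio of CYP27B1 to VDR was 7.34 to 23.4 in T24 and 0.471 to 1.07 in T24R2.

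The other genes of vitamin D handling and the partners of VDR formed a list of 19, of which 14 were tested. In T24R2 4 of these rose and 2 fell, or 42.9% called beside 51.4% of all genes tested, and the median log2 fold change was 0.19 beside 0.015 over all genes. CYP2R1, the main enzyme that makes calcidiol, the precursor of calcitriol, had 9.88 ± 1.34 CPM in T24 and 10.6 ± 1.07 CPM in T24R2 (log2 fold change 0.10, SE 0.13, adjusted p = 0.481). DHCR7, which draws the vitamin D precursor into cholesterol synthesis, rose from 56.5 ± 2.89 to 179 ± 7.09 CPM (log2 fold change 1.67, SE 0.05, adjusted p = 8e-28). CYP27A1, a mitochondrial sterol hydroxylase that also acts on vitamin D, had 55 counts over the T24 libraries and 0 over the T24R2 libraries. Against a floor of 3 counts over a line, it was at least 21.4-fold lower in T24R2, and it did not pass the filter.

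RXRA, the main dimer partner of VDR, fell from 118 ± 3.55 to 68.7 ± 4.82 CPM (log2 fold change -0.77, SE 0.05, adjusted p = 2.33e-16). RXRB, a second partner, had 28.4 ± 1.59 and 34.4 ± 3.28 CPM and stayed under the fold minimum (log2 fold change 0.28, adjusted p = 0.00189). The RPKM ratio of VDR to RXRA was 0.030 ± 0.011 in T24 and 0.184 ± 0.0112 in T24R2, so RXRA remained the more abundant transcript in both lines. Among coactivators, NCOA1 rose from 16.0 ± 1.90 to 40.3 ± 5.34 CPM and NCOA2 from 22.9 ± 0.975 to 45.2 ± 2.83 CPM (adjusted p = 7.18e-16 and 4.81e-15). PDIA3, a disulfide isomerase of the endoplasmic reticulum also described as a membrane binding protein for calcitriol, fell from 706 ± 10.4 to 303 ± 12.2 CPM (log2 fold change -1.22, adjusted p = 1.75e-26).

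Among the tested genes known as targets of VDR, apart from CYP24A1, more were lower in T24R2 than higher. Of 24 listed, 11 were tested, 8 fell and 1 rose, or 81.8% called beside 51.4% of all genes tested, with a median log2 fold change of -0.98 beside 0.015. The other 13 were not tested because of low counts. Among these, SPP1 was higher in T24R2, with 3 counts over the T24 libraries and 67 over the T24R2 libraries. S100G (59 and 0), CALB1 (76 and 15) and CD14 (52 and 5) were lower. This list, like the other gene lists here, was chosen with earlier results of these data known, so its share called is a description only. IGFBP3, a binding protein of insulin-like growth factors, fell from 246 ± 34.1 to 4.58 ± 0.807 CPM (log2 fold change -5.74, SE 0.10, adjusted p = 5.7e-37). G0S2, an inhibitor of triglyceride lipolysis, fell from 151 ± 12.4 to 6.75 ± 1.26 CPM (log2 fold change -4.48, adjusted p = 3.17e-35). CDKN1A, the cell cycle inhibitor p21 and also a target of p53, fell from 97.5 ± 4.10 to 12.8 ± 1.76 CPM (log2 fold change -2.93, adjusted p = 1.43e-30). The sugar-phosphate transporter gene SLC37A2 fell from 55.3 ± 5.93 to 8.60 ± 1.53 CPM, and the semaphorin gene SEMA3B from 4.29 ± 0.333 to 1.38 ± 0.696 CPM (adjusted p = 4.25e-25 and 8.63e-07). SULT1C2, a sulfotransferase, rose from 2.53 ± 0.752 to 5.15 ± 1.45 CPM (log2 fold change 1.02, SE 0.23, adjusted p = 0.00011). These genes have regulators other than VDR, and the part of VDR in their levels was not tested.

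**Figure D2:**
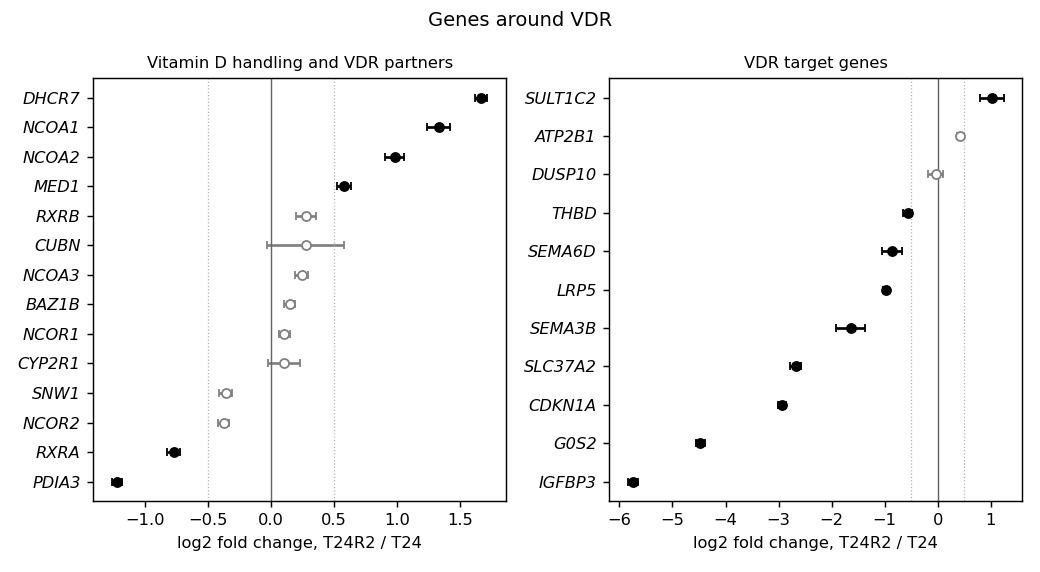
Log2 fold change of T24R2 over T24 (horizontal axis, error bars SE, n = 5 in each line) for the 14 tested genes of vitamin D handling and VDR partners (left) and the 11 tested VDR target genes (right), with filled points for called genes, open points for the others and dotted lines at an absolute value of 0.5. The partners lie on both sides of 0, from -1.22 for PDIA3 to 1.67 for DHCR7, whereas 8 targets lie below -0.5 and IGFBP3 is the lowest at -5.74.

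AHR (ENSG00000106546.14, chromosome 7, 16916359 to 17346152, plus strand) had 152, 140, 187, 190 and 152 counts in T24 and 156, 172, 146, 143 and 139 in T24R2. The lines overlapped in CPM, because T24R2 replicate 2 was above T24 replicate 2. The mean was 17.7 ± 2.95 CPM in T24 and 13.9 ± 0.803 CPM in T24R2, or 78.5% of the T24 level (log2 fold change -0.35 ± 0.11, SE). An unnamed same-strand gene, ENSG00000283321, covers 29.5% of the AHR exon bases and had no count in any library. Fragments in such shared stretches belong to 2 genes and by the default of the counting tool go to neither, so the AHR counts come from the rest of the gene. On the opposite strand ENSG00000237773 covers 6.11% of the AHR exon bases, with 92 counts in T24 and 121 in T24R2 (log2 fold change 0.17, adjusted p = 0.599).

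CYP1A1, CYP1B1 and AHRR, the classic induced genes of AHR, were close to 0 in both lines, and none passed the filter. CYP1A1 (ENSG00000140465.15, chromosome 15, 74719542 to 74725536, minus strand), which oxidizes polycyclic aromatic hydrocarbons, had 0, 6, 2, 1 and 0 counts in T24 and 7, 6, 5, 2 and 11 in T24R2. The lines overlapped, and T24 replicate 2 held 6 of the 9 counts of T24. The mean was 0.193 ± 0.262 CPM in T24 and 0.579 ± 0.327 CPM in T24R2, a count ratio of T24R2 to T24 of 2.95 (95% exact interval 1.37 to 7.04). Intervals for CYP1A1 and CYP1B1 pool the counts of each line and leave out the spread between libraries, so they are not a test. Without T24 replicate 2 the ratio was 7.03 (interval 2.19 to 36). Without T24R2 replicate 5, which had 11 counts, it was 2.34 (interval 1.02 to 5.84).

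CYP1B1 (ENSG00000138061.12, chromosome 2, 38066973 to 38109902, minus strand), which oxidizes estrogens and procarcinogens, had 2, 0, 0, 1 and 0 counts in T24 and 3, 6, 10, 6 and 1 in T24R2. The lines overlapped through T24R2 replicate 5. The mean was 0.063 ± 0.093 and 0.476 ± 0.324 CPM, and the count ratio of T24R2 to T24 was 7.42 (95% exact interval 2.27 to 38.3). Without T24 replicate 1, which held 2 of the 3 counts of T24, the ratio was 17.6 (interval 2.9 to 723). Without T24R2 replicate 3, which had 10 counts, it was 5.65 (interval 1.62 to 30.3). CYP1B1-AS1 on the opposite strand covers 11.3% of the CYP1B1 exon bases and had 4 counts in T24 and 18 in T24R2. RMDN2, also on the opposite strand, shares 96 bases and rose from 49 to 153 counts (log2 fold change 1.40, SE 0.30, adjusted p = 7.33e-05). RMDN2-AS1, on the same strand, shares 69 bases and had 0 and 2 counts. The counting used strand option 1 and the kit is not described as strand-specific, so the part of these neighbours in the CYP1B1 counts was not tested.

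AHRR (ENSG00000063438.20, chromosome 5, 321714 to 438291, plus strand), which competes with AHR for ARNT, had 3, 3, 3, 1 and 3 counts in T24 and 2, 1, 0, 3 and 2 in T24R2. The lines overlapped, at 0.280 ± 0.0971 and 0.146 ± 0.104 CPM. The read-through gene PDCD6-AHRR shares 58.7% of the AHRR exon bases on the same strand, with 3 counts in T24 and 0 in T24R2. The low counts of AHRR therefore cover less than its full length, and a difference between the lines was not detectable at this depth.

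Promoter sequences in RefSeq (GRCh38.p14) matched 4 of the 9 genes by symbol: CYP2S1, CYP1A1, AHR and AHRR. The 250 bases before the start site are shown for the 3 that are known as AHR-induced, CYP1A1 and AHRR, near 0 in both lines, and CYP2S1, at 0 in T24R2. Capitals mark GCGTG, the core bound by AHR with ARNT, its longer form TNGCGTG, the nuclear receptor half-site AGGTCA, which on the other strand is printed as TGACCT, the variant half-site GGTTCA and the TATA motif TATAAA. The letters of GCGTG are contained in TNGCGTG, and both strands were searched. CYP1A1 covers chr15:74725529-74725778 (minus strand), AHRR covers chr5:321464-321713 (plus strand, the first of 2 start sites) and CYP2S1 covers chr19:41192969-41193218 (plus strand).
CYP1A1: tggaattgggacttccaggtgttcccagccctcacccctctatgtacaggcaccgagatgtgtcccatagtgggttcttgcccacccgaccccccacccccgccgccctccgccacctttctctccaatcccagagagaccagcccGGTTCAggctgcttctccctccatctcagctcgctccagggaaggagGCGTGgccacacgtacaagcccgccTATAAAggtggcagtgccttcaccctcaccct
AHRR: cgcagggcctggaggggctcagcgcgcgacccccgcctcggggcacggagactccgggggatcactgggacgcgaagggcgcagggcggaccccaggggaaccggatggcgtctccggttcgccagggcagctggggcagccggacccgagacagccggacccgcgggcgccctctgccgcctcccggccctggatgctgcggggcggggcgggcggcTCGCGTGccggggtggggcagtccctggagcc
CYP2S1: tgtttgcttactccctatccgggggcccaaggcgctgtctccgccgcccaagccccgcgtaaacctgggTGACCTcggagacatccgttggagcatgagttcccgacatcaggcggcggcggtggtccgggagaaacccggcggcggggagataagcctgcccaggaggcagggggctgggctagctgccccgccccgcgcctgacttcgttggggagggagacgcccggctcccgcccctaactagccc
In CYP1A1, GCGTG starts 57 bases before the start site, GGTTCA starts 104 bases before it and TATAAA 32 bases before it. In AHRR, TNGCGTG starts 32 bases before the first start site. Before the second start site, which is not printed, GCGTG starts 247 and 42 bases away. AGGTCA lies there 202 to 197 bases away and, on the other strand, 223 to 218 bases away, and TNGCGTG has no match. In CYP2S1, the half-site lies on the other strand, 181 to 176 bases before the start site, and the other motifs searched have no match in this window. GCGTG is held by 32.2% of the 35116 promoters in the table, TNGCGTG by 4.52%, AGGTCA by 12.1%, GGTTCA by 7.16% and TATAAA by 10.7%. A match describes letters only, and binding was not measured.

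Few partners of AHR were called. All 12 were tested, 2 rose and 0 fell, or 16.7% called beside 51.4% of all genes tested, with a median log2 fold change of -0.026 beside 0.015. ARNT, the dimer partner of AHR, had 41.6 ± 5.82 CPM in T24 and 43.5 ± 4.10 CPM in T24R2 (log2 fold change 0.065, SE 0.08, adjusted p = 0.478). ARNT2, a paralog of ARNT, rose from 64 to 797 counts over 5 libraries (log2 fold change 3.40, SE 0.18, adjusted p = 6.15e-20). KPNB1, a nuclear import receptor, rose from 545 ± 12.4 to 1013 ± 23.0 CPM (log2 fold change 0.89, adjusted p = 1.14e-22). The RPKM ratio of AHR to ARNT was 0.344 ± 0.0548 in T24 and 0.259 ± 0.0409 in T24R2, ranges that overlap. It uses full exon lengths, which sets AHR too low against ARNT in both lines, since 29.5% of the AHR exon bases are shared on the same strand.

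Genes known as AHR targets moved in both directions. Of 18 listed beside the members, 14 were tested, 4 rose and 8 fell, or 85.7% called beside 51.4% of all genes tested, with a median log2 fold change of -0.95 beside 0.015. As the list was chosen with earlier results of these data known, that share is a description only. TIPARP, an AHR-induced ADP-ribosyltransferase that represses AHR, fell from 33.0 ± 2.17 to 23.1 ± 2.74 CPM (log2 fold change -0.52, SE 0.09, adjusted p = 1.07e-06), just past the fold minimum. It was under that minimum without T24 replicate 2 (-0.49), without T24R2 replicate 3 (-0.49) and without T24R2 replicate 4 (-0.46). Among the genes that fell, ABCG2, an efflux transporter, went from 6.21 ± 1.20 to 0.883 ± 0.157 CPM (log2 fold change -2.80, adjusted p = 3.96e-13). PTGS2, the inducible cyclooxygenase, went from 14.8 ± 1.61 to 2.15 ± 0.988 CPM (log2 fold change -2.79, adjusted p = 3.34e-16). SERPINB2, an inhibitor of plasminogen activators, went from 47.6 ± 9.01 to 8.43 ± 1.78 CPM, and IDO1, which starts tryptophan breakdown, from 14.2 ± 3.38 to 4.30 ± 1.04 CPM (adjusted p = 2.06e-21 and 5.78e-12). The 4 genes that rose were NQO1, NFE2L2, STC2 and SLC7A5, and the first 2 belong to the oxidative stress response as well as to the list of AHR targets. NQO1, a quinone reductase, rose from 345 ± 13.7 to 1038 ± 8.11 CPM (log2 fold change 1.59, adjusted p = 1.38e-30). A gene on the opposite strand covers 19.4% of the NQO1 exon bases and rose from 1471 to 7880 counts (log2 fold change 2.20). The part of that gene in the NQO1 counts was not tested. UGT1A1, a bilirubin glucuronosyltransferase, had 92 counts in T24 and 0 in T24R2, at least 35.8-fold lower, and shares up to 50.1% of its exon bases with another UGT1A gene.

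**Figure D3:**
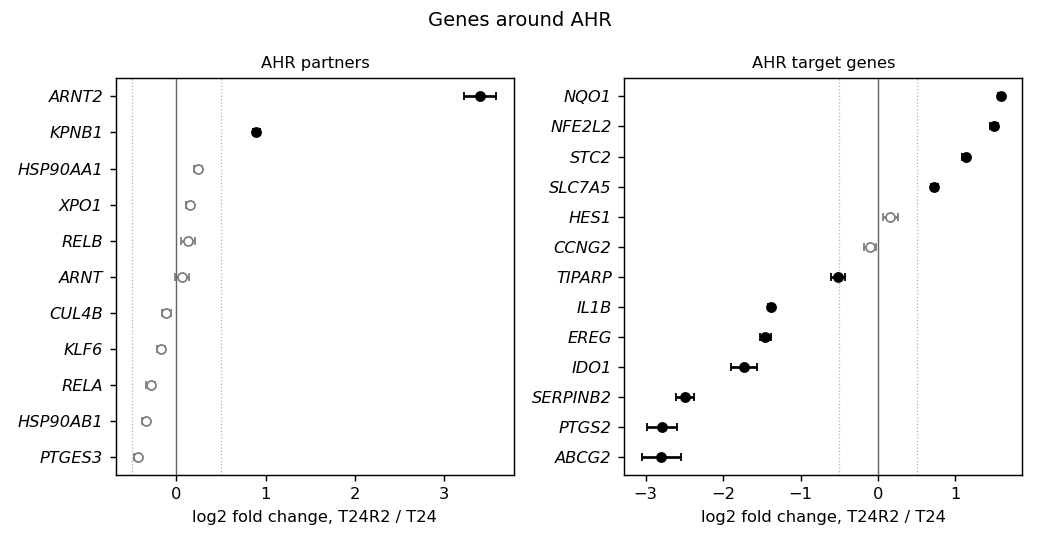
Log2 fold change of T24R2 over T24 (horizontal axis, error bars SE, n = 5 in each line) for 11 of the 12 tested AHR partners (left) and 13 of the 14 tested AHR target genes (right), with filled points for called genes, open points for the others and dotted lines at an absolute value of 0.5. UGT1A1, at 0 counts in T24R2, is left out, ARNT2 and KPNB1 are the only partners past the minimum, and the targets spread from -2.80 for ABCG2 to 1.59 for NQO1.

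CYP2S1 (ENSG00000167600.14, chromosome 19, 41193210 to 41207539, plus strand), an enzyme of epithelial tissues that oxidizes retinoids and prostaglandin intermediates, had 147, 158, 123, 143 and 132 counts in T24. Every T24R2 library had 0. The mean in T24 was 15.1 ± 1.03 CPM, and against a floor of 3 counts over the 5 T24R2 libraries the gene was at least 274-fold lower in T24R2. No other gene shares its exons on either strand.

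Within the P450 family, CYP2S1 and CYP24A1 were among the highest in T24 and absent or nearly so in T24R2. Together with 52 other P450 genes the 5 P450 members make 57, of which 20 had no count in T24 and 18 had none in T24R2. A mean of 1 CPM was reached by 15 in T24 and 13 in T24R2, of which 11 were shared. CYP24A1, CYP27A1, CYP27C1 and CYP2S1 reached it only in T24, and CYP2J2 and CYP39A1 only in T24R2. In T24 the 4 highest by RPKM over the full exon length were CYP2S1 (5.56 ± 0.378), CYP24A1, CYP26B1 (3.75 ± 0.329) and CYP27B1. In T24R2 CYP27B1 was at position 11 of that order, and the 3 highest were CYP4F11 (5.10 ± 0.548), CYP26B1 (4.79 ± 0.277) and CYP51A1 (3.72 ± 0.707). The place of CYP51A1 in both lines depends on the length used, since a same-strand gene covers 68.2% of its exon bases and fragments there go to neither gene. Per exon base not shared on the same strand, a scale chosen after seeing the data, CYP51A1 stood at 3.85 ± 0.686 RPKM in T24 and 11.7 ± 2.22 RPKM in T24R2. On that scale it was the highest P450 in T24R2, without overlap with CYP4F11 below it, and lay at position 3 in T24, where its libraries overlapped those of CYP24A1 and CYP26B1. The summed level of all 57 was 127 ± 8.92 CPM in T24 and 179 ± 6.65 CPM in T24R2.

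Of the 52 other P450 genes, 13 were tested, 7 rose and 1 fell, or 61.5% called beside 51.4% of all genes tested, with a median log2 fold change of 1.33 beside 0.015. CYP2J2 and CYP39A1 passed the filter only through T24R2, and CYP27C1 only through T24. For these genes the filter made a call likely, so their p-values and the share called are a description only. CYP27C1, a retinol desaturase, fell from 4.29 ± 0.690 to 0.116 ± 0.213 CPM (log2 fold change -5.13, SE 0.46, adjusted p = 5.59e-13), and T24R2 replicate 5 held 5 of its 6 T24R2 counts. Without that library the log2 fold change was -6.93. CYP4F11, a fatty acid and vitamin K hydroxylase, rose from 3.19 ± 0.861 to 19.0 ± 2.04 CPM (log2 fold change 2.57, adjusted p = 1.54e-18). CYP20A1, a P450 without an established substrate, rose from 7.41 ± 1.64 to 32.2 ± 2.30 CPM (log2 fold change 2.12, adjusted p = 7.9e-20). CYP2J2, an arachidonic acid epoxygenase, rose from 5 to 127 counts over 5 libraries (log2 fold change 4.30, SE 0.49, adjusted p = 3.13e-10). CYP39A1, an oxysterol hydroxylase, rose from 13 to 135 counts (log2 fold change 3.09, SE 0.45, adjusted p = 8.35e-08), and the value without T24 replicate 3, which held 7 of the 13, was 3.86. CYP51A1, the demethylase of lanosterol in cholesterol synthesis, rose from 5.11 ± 0.911 to 15.5 ± 2.95 CPM (log2 fold change 1.60, SE 0.15, adjusted p = 2.09e-12). Its CPM counts only the part of the gene that no other gene shares on the same strand. Genes on the opposite strand cover 5.90% of its exon bases. They had 2392 and 9 counts in T24 and 4537 and 148 in T24R2, and their part in the CYP51A1 counts was not tested. CYP3A5, a steroid and drug oxidase, had 9.24 ± 2.14 and 8.81 ± 0.937 CPM and was not called (log2 fold change -0.068, adjusted p = 0.681).

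**Figure D4:**
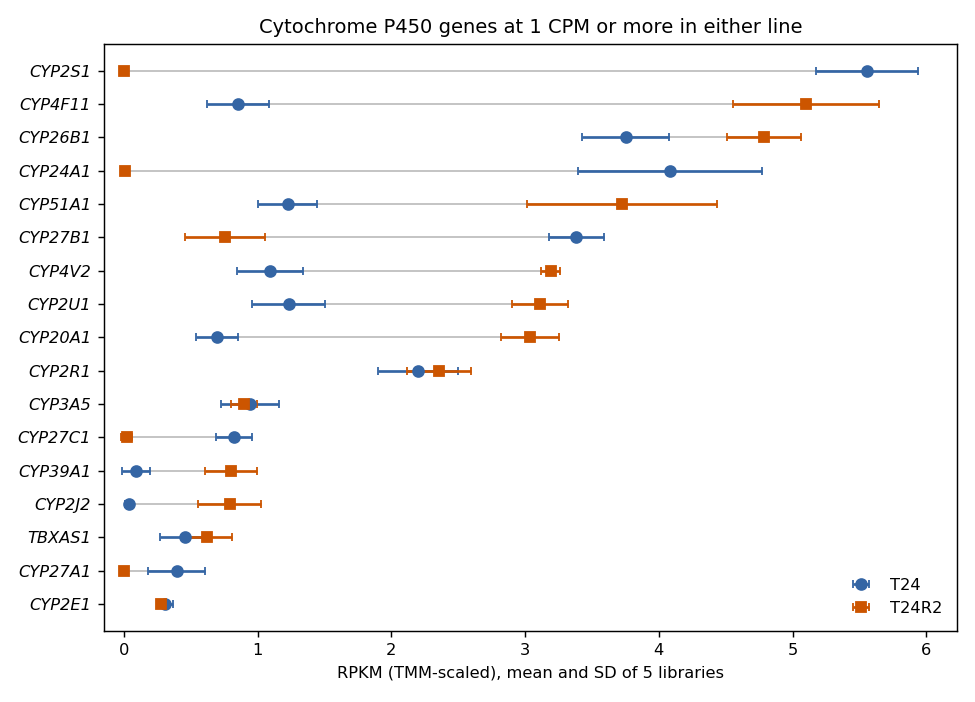
TMM-scaled RPKM (horizontal axis, linear, mean and SD of 5 libraries) in T24 (blue circles) and T24R2 (orange squares) of the 17 P450 genes with a mean of 1 CPM or more in either line, ordered by the higher of the means, with a grey line joining the lines for each gene. CYP2S1 and CYP24A1 drop from 5.56 and 4.08 to 0 and 0.0094, while CYP4F11 and CYP51A1 reach 5.10 and 3.72 in T24R2. The full exon length is used here, which sets CYP51A1 too low.

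POR (ENSG00000127948.16, chromosome 7, 75899200 to 75986855, plus strand) had 329, 318, 300, 297 and 300 counts in T24 and 534, 596, 571, 521 and 497 in T24R2. Every T24R2 library was above every T24 library, and the replicates of each line lay close together. The mean was 33.2 ± 1.04 CPM in T24 and 50.0 ± 3.19 CPM in T24R2, or 151% of the T24 level (log2 fold change 0.59 ± 0.07, SE). TMEM120A shares 25 exon bases with POR on the opposite strand and differed by 0.30 on the log2 scale (adjusted p = 0.0151), and the microRNA gene MIR4651 shares 73 bases on the same strand and had no count.

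FDXR and FDX1, the electron donors of mitochondrial P450s such as CYP24A1 and CYP27B1, both fell. In the list of 9 electron donors and membrane partners, 8 were tested, 1 rose and 4 fell, or 62.5% called beside 51.4% of all genes tested, with a median log2 fold change of -0.44 beside 0.015. FDXR, the reductase of the mitochondrial chain, had 361, 326, 280, 276 and 307 counts in T24 and 174, 109, 89, 113 and 92 in T24R2. It fell from 33.2 ± 2.87 to 10.6 ± 3.03 CPM (log2 fold change -1.65, SE 0.12, adjusted p = 5.69e-16), with T24R2 replicate 1 the highest of its line. FDX1, the ferredoxin that carries electrons from FDXR, fell from 31.0 ± 3.11 to 17.5 ± 2.21 CPM (log2 fold change -0.82, adjusted p = 3.52e-10). CYB5A, cytochrome b5 of the endoplasmic reticulum, had 200, 196, 167, 202 and 173 counts in T24 and 119, 101, 78, 81 and 65 in T24R2, and fell by 1.30 on the log2 scale (SE 0.12, adjusted p = 1.87e-12). PGRMC1, a heme-binding membrane partner of P450s, rose from 61.7 ± 4.80 to 117 ± 7.35 CPM (log2 fold change 0.92, adjusted p = 1.21e-17). The RPKM ratio of POR to FDXR was 0.543 to 0.641 in T24 and 1.83 to 3.82 in T24R2.

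**Figure D5:**
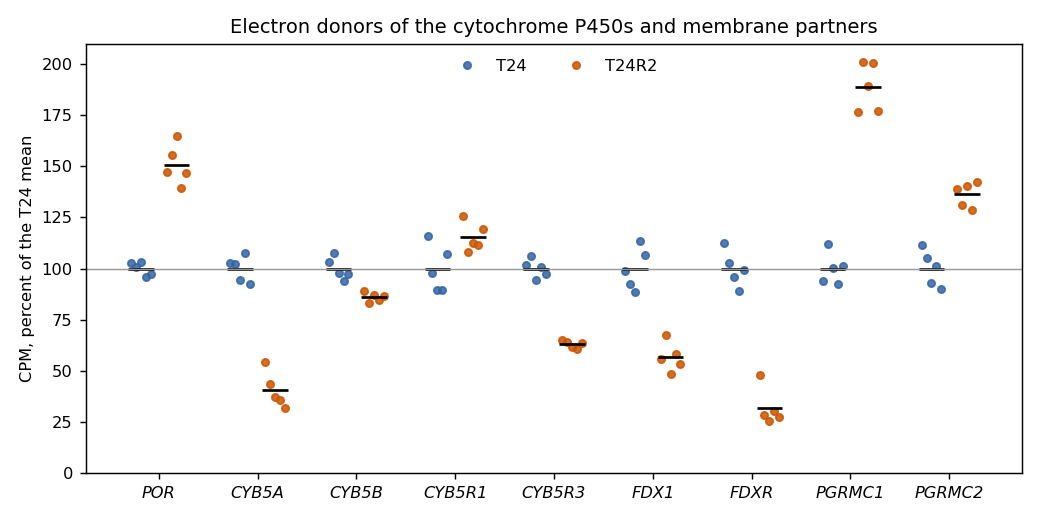
CPM of POR and 8 other electron donors and membrane partners in each library, as percent of the mean of T24 (vertical axis, linear, from 0), with T24 libraries in blue, T24R2 libraries in orange and black bars at the mean of each line. POR stands at 140% to 165% in the T24R2 libraries, FDXR at 25.6% to 47.9% and CYB5A at 31.7% to 54.1%.

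The heme that P450s carry is made by 8 enzymes, all of them tested, of which 3 rose and 1 fell, or 50.0% called beside 51.4% of all genes tested, with a median log2 fold change of 0.063 beside 0.015. FECH, which inserts the iron, rose from 31.4 ± 2.97 to 61.9 ± 2.34 CPM (log2 fold change 0.98, adjusted p = 3.43e-16), and UROD and ALAD rose by 0.61 and 0.55 on the log2 scale (adjusted p = 5.18e-13 and 1.19e-09). The share called is close to that of all genes.

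Other ligand-activated nuclear receptors, which share partners and P450 targets with VDR, changed in both directions. Of 19 listed, 14 were tested, 4 rose and 6 fell, or 71.4% called beside 51.4% of all genes tested, with a median log2 fold change of -0.20 beside 0.015. NR1I2, the pregnane receptor that induces drug-metabolizing P450s, had 209 counts in T24 and 0 in T24R2, at least 81.4-fold lower. THRB, a thyroid hormone receptor, fell from 5.48 ± 1.25 to 0.547 ± 0.210 CPM, and PPARG, a receptor of fatty acid derivatives, from 75.7 ± 2.44 to 26.1 ± 3.82 CPM (adjusted p = 4.74e-13 and 2.43e-21).

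Over the whole set, the order of levels by RPKM over the full exon length in T24 was CYP2S1, POR, CYP24A1, CYP27B1, AHR, VDR, CYP1A1, AHRR and CYP1B1. Neighbours in that order overlapped between libraries except for POR above CYP24A1, CYP27B1 above AHR and AHR above VDR. The gap between CYP27B1 and AHR rests on the full length. Per exon base not shared on the same strand, CYP27B1 had 3.14 to 3.65 RPKM and AHR 2.59 to 3.75 RPKM in T24, so that the ranges overlapped, and AHRR moved ahead of CYP1A1. In T24R2 the order was POR, AHR, VDR, CYP27B1, CYP1A1, CYP1B1, AHRR, CYP24A1 and CYP2S1, and POR lay above AHR, AHR above VDR and CYP27B1 above CYP1A1 without overlap. These gaps in T24R2 were also present on the scale of unshared bases. The RPKM of POR was 5.49 ± 0.172 in T24 and 8.28 ± 0.528 in T24R2, and that of AHR was 2.20 ± 0.367 and 1.72 ± 0.0997, or 3.12 ± 0.520 and 2.45 ± 0.141 per unshared base.

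The tested genes most alike in pattern were found by the root mean square difference of log2 CPM, centred for each gene, over the 10 libraries. For CYP24A1 these included ZNF518A (0.216) and XACT (0.227), each with 0 CPM in T24R2 and a mean of 12.9 and 15.2 CPM in T24. For VDR they were TSGA10 (0.215), ENSG00000257027 (0.220) and NBPF12 (0.227), with 2.59, 1.27 and 9.11 CPM in T24 and 9.93, 3.79 and 35.9 CPM in T24R2. For CYP1B1 they were SERTAD4 (0.388), ZNF2 (0.405) and WHRN (0.415), a looser likeness at its low counts. With 2 lines, this measure is set largely by the size of the difference between them.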

How the data were processed

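RNA of T24 and T24R2 was sequenced on day 3 of culture, with 5 libraries of each line. Alignment by the authors used STAR 2.7.0 and hg38. SAMtools 1.10 removed duplicates and multiply mapped reads, and featureCounts 2.0.1, set to strand option 1, assigned fragments to genes (GENCODE release 39). The deposited counts are neither normalized nor pooled, and 61369 of 61533 identifiers matched a symbol. The MeRIP-seq, qPCR and organoid data of the study were not analysed here.

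Lines were compared by edgeR 4.0.16 under R 4.3.3 (default filterByExpr, TMM, glmQLFit and glmQLFTest, Benjamini-Hochberg adjustment over all 16181 genes tested). Standard errors belong to the log2 fold change, and SD is over 5 libraries. RPKM used the full exon lengths in the tables, with exon bases unshared on the same strand as an alternative chosen after seeing the data. Where a line had 0 counts, folds used a floor of 3 counts over its 5 libraries. Lines with 1 to 3 counts, and CYP1A1 with 9 and 31, were compared by exact 95% intervals on the pooled counts. At 9257843 counts in the smallest library, intervals and floors cover counting error only. Exon overlaps were computed with bedtools 2.31.1. Motifs were searched with Python 3.11.15. DESeq2 1.42.0 and limma 3.58.1 served as alternatives, and the steps were tested on simulated counts.

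The 9 genes and the gene lists were chosen with earlier results of these data known. Named were these 9 genes, the genes whose exons overlap theirs, RXRA, RXRB, ARNT, TIPARP, CYP51A1 and CYP2R1, and from each list up to 4 called genes (up to 6 in lists over 20) of the largest absolute log2 fold change among those averaging 1 CPM or more. The 3 tested genes most alike in pattern to CYP24A1, CYP1B1 and VDR were added. CYP27A1, CYP26B1, CYP3A5, UGT1A1, NQO1, NFE2L2, STC2, SLC7A5, SPP1, S100G, CALB1 and CD14 were named after their values were seen, as were the marker genes. The results of some genes under this rule are not reported here.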

Additional observations from a re-analysis of the deposited data

Results flagged for a closer look

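A library was singled out where its gap to the nearest library of the same line was more than 0.71 of the range of the 5. Of 90 groups of 5 libraries examined, 7 had such a library, where chance alone gives about 1 in 20, or 4.5.

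Among the 9 genes only AHRR had one, T24 replicate 4 at 0.107 CPM (1 count) beside 0.311 to 0.342 CPM in the other T24 libraries, a difference of 2 counts. ARNT was at 36.4 CPM in T24R2 replicate 2 and 44.1 to 46.5 CPM in the others. CYP51A1 was at 10.3 CPM in T24R2 replicate 3 beside 16.1 to 17.5 CPM. SULT1C2 stood at 3.86 CPM in T24 replicate 4, above 2.05 to 2.37 CPM in the other T24 libraries. CYP27C1 was at 0.490 CPM in T24R2 replicate 5 and at 0 to 0.0915 CPM in the others. FDXR was at 15.9 CPM in T24R2 replicate 1, above 8.52 to 10.0 CPM. UROD was at 133 CPM in T24R2 replicate 5, above 124 to 126 CPM.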

How the results depend on the processing

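The direction of the log2 fold change was the same under every alternative for CYP24A1, CYP27B1, CYP2S1, VDR, AHR and POR. It ranged over all alternatives from -8.86 to -7.82 for CYP24A1, from -2.32 to -1.99 for CYP27B1, from 1.62 to 2.02 for VDR, from -0.41 to -0.18 for AHR and from 0.56 to 0.76 for POR. A filter at a mean of at least 100 counts left only AHR and POR of these 6 in the test. The range for CYP24A1 is not its uncertainty, since its fitted value rests on 2 counts in T24R2. Its counting interval was 122 to 3658 for the ratio of T24 to T24R2. CYP2S1, at 0 counts in T24R2, has no fitted value that is a bound. A mean of at least 100 counts left untested 11 of 34 called list genes that were named by rule, among them ARNT2, CYP27C1, CYP2J2 and CYP39A1. Called genes named in other ways, such as UGT1A1 and NQO1, are not among the 34. In fits that tested these 34, and with the fold minimum of the report, TIPARP alone lost its call. It was at -0.35 without scaling, -0.44 with upper-quartile scaling and -0.49 with a mean of at least 100 counts. When any of the 3 libraries named for it in the report was left out, it was at -0.49 to -0.46.

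Counts of called genes moved by over 1.5 times only with other thresholds or filters. With an absolute log2 fold change over 1, 4211 of 16181 genes were called (26.0%), with 3 for vitamin D handling and VDR partners, 1 AHR partner, 2 electron donors and membrane partners, 1 heme enzyme and 6 nuclear receptors. With no fold minimum 12212 genes were called (75.5%), with 12 for vitamin D handling and VDR partners, 10 AHR partners and 8 electron donors. With a mean of at least 100 counts, 4991 of 10686 genes were called (46.7%), with 1 AHR partner, 7 AHR targets, 5 other P450 genes and 5 nuclear receptors. Fewer genes were tested there, and among the AHR targets TIPARP was also under the fold minimum. With no filter 10919 of 33622 genes were called (32.5%), with 14 of 40 other P450 genes. Leaving out genes overlapped from the opposite strand in more than 10% of their exon bases gave 11 AHR targets and 8 nuclear receptors and left the other 6 list counts as they were.

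Leaving out each library in turn gave 8398 to 8466 calls over all genes, 6 in vitamin D handling and VDR partners, 9 to 11 VDR targets, 2 AHR partners, 11 to 12 AHR targets, 8 to 9 other P450 genes, 5 electron donors, 4 heme enzymes and 8 to 10 nuclear receptors. Replicate numbers do not pair the samples, since same-numbered libraries of the lines had deviations that correlated at -0.021 to 0.016, and 1 of the 5 correlated best with its own number. A fit with a replicate block called 8240 genes, and 9 nuclear receptors in place of 10, and moved no other list count. The depth limits CYP1A1, CYP1B1 and AHRR, which had at most 11 counts in a library.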
